A study of Mus musculus with 6 samples.

Results

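Cytosolic ribosomal protein genes were taken as every mouse gene symbol made of Rps or Rpl, a number and at most a short ending, so that Rps27, Rps27l, Rps4x, Rpl10a and Rpl36al were members while others, such as the acidic proteins Rplp0, Rplp1 and Rplp2, Rpsa, Fau and Rack1, were not. This rule found 80 of the 34187 genes in the count matrices, 31 of the small subunit (Rps) and 49 of the large subunit (Rpl). Cells came from subcutaneous 6694c2vTRP1 pancreatic tumors in C57BL/6 mice, which received PBS, mono-IL10 at 26 µg per mouse or IL10/2-Trikine at 30.6 µg per mouse by intraperitoneal injection, in 2 doses from day 8, and whose tumors were taken on day 14. mono-IL10 is the IL-10 comparator, and IL10/2-Trikine is an engineered protein made to join receptors of IL-10 and IL-2. CD45+ cells were isolated on beads, tagged by mouse with antibody-linked barcodes (hashtags), pooled over 5 mice per group and sequenced as 1 library per group with 5′ single cell RNA-seq, so treatment and library cannot be told apart in any comparison of the groups. The mouse, read from its hashtag, was the replicate.

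Ribosomal proteins, together with ribosomal RNA, build the small subunit, which decodes the message, and the large subunit, which forms the peptide bond. Their mRNAs are short, abundant and begin with a run of pyrimidines, the 5′ terminal oligopyrimidine (TOP) element, through which the kinase mTOR and the binding protein LARP1 set their translation and stability. In lymphocytes, cytokines that signal growth, IL-2 among them, engage mTOR and MYC, which are known regulators of ribosome production.

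To show where these mRNAs begin, the 30 bases around the annotated start (10 before it and 20 from it) are given for Rps6, the small subunit protein phosphorylated by S6 kinase, Rps19, the gene most often mutated in Diamond-Blackfan anemia, Rpl11, which can bind and inhibit MDM2, Rpl13a, known from interferon-gamma controlled translational silencing, and Rpl22l1, the paralog of Rpl22. Starts and sequences are from RefSeq on GRCm38.p6, whereas the counts were made on GRCm39, and capitals mark a match to CTTTCC or CTCTTT, pyrimidine runs searched on the gene's strand alone.
Rps6 (chr4:86857348-86857377, minus strand): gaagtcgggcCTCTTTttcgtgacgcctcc
Rps19 (chr7:24884582-24884611, plus strand, the first of 3 listed starts): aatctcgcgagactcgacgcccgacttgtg
Rpl11 (chr4:136053374-136053403, minus strand): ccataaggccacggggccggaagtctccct
Rpl13a (chr7:45128726-45128755, minus strand): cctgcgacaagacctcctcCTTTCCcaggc
Rpl22l1 (chr3:28805498-28805527, plus strand): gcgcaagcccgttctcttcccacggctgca
Of the 80 members, 61 had a listed start. Within 50 bases on each side of it, CTTTCC was present in 20 of the 61 members (32.8%) and in 1468 of 27025 genes (5.43%). CTCTTT was present in 19 of the 61 (31.1%) and in 1266 of 27025 genes (4.68%). The motifs can overlap in one sequence, and a match is a string of letters, not a measured start or binding site. Of the stretches shown, that of Rps6 has a run of pyrimidines at the listed start. The others have a purine as the first base of the listed start, and the marked run of Rpl13a lies further in.

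The 3 libraries held 130444 barcodes, with a median of 6498 UMIs (unique molecular identifiers, counted once per captured mRNA) per barcode for PBS, 8078 for mono-IL10 and 5198 for IL10/2-Trikine. The members took 14.6%, 16.0% and 17.1% of all UMIs of these libraries, and 6.17%, 6.29% and 9.06% of the UMIs in barcodes under 1000 UMIs, where RNA free of cells weighs more. Between 8.64% and 13.3% of barcodes were hashtag doublets, which were removed unless the deposited annotation held them. Pairs of libraries shared 208 to 333 cell barcodes. T and NK cells kept the 12 clusters of the deposited annotation, with 2084 cells of these groups, of which 1383 had a mouse. Macrophage or monocyte-like, dendritic cell-like and tumor epithelial-like cells were named from markers in a clustering that left the members out, and 24 of its 60 clusters, with 39.2% of 92489 cells, stayed unnamed. The macrophage class held C1qa at 2443 CPM (UMIs scaled to a common total per mouse) against 7.72 in the tumor class, and the tumor class held Krt8 at 2378 CPM against 19.6 in macrophages, while Epcam was low in the tumor class (24.6 CPM). The dendritic class rested on clusters led by Ccr7 with Ccl22 and by Clec9a with Xcr1, and it held C1qa at 567.4 CPM. The tumor cells measured here are those that passed an isolation of CD45+ cells.

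The member share, the percentage of a cell's UMIs that fell on the 80 genes after every cell was thinned to 1500 UMIs, differed widely between cell types. The median cell gave 26.5% in the annotated gdT/NKT cluster, 25.9% in naive_CD8T, 25.2% in NK, 24.4% in naive_CD4T and 23.0% in act_CD4T cells. Cycling T cells were lower at 20.9%. Tregs, which restrain other T cells, had a median of 14.3% in 127 cells, far below the other helper T cell clusters. Outside the annotated lymphocytes, the median was 17.7% in tumor, 14.3% in dendritic, 11.5% in macrophage and 6.40% in neutrophil-like cells. These levels are a description, since the clusters were named by the authors from the same cells' genes.

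Over mice with at least 5 cells of a cluster, NK cells had a mean share of 25.4% ± 1.37 (SD, n = 15), gdT/NKT cells 27.2% ± 1.73 (n = 12) and naive_CD8T cells 26.5% ± 1.37 (n = 9). These neighbors overlapped within their spread. The act_CD4T cells followed at 23.5% ± 1.31 (n = 9), Cycling_T cells at 20.8% ± 1.23 (n = 14) and Treg cells at 15.01% ± 1.94 (n = 9). The naive_CD4T cells had 26.2% ± 4.38 in 6 mice, from 21.9% to 32.9%, a range that overlapped those of NK, act_CD4T and Cycling_T cells. The means of Cycling_T and Treg lay apart from each other and from those of NK, gdT/NKT, naive_CD8T and act_CD4T cells by more than these SDs. Single mice still overlapped between Cycling_T (18.7% to 23.2%) and act_CD4T (21.7% to 25.3%). The Treg mice were 5 of PBS, 3 of mono-IL10 and 1 of IL10/2-Trikine. Further small clusters were ISG+CD8T (16 cells, median 23.6%), Th17/ILCs (21 cells, 20.3%), Cycling_Treg (32 cells, 17.9%) and Cycling_NK (68 cells, 23.6%), which were not placed in the order. The cluster annotated naive_T stood alone, with 24 cells, a median share of 1.23%, and 21.9 members detected per cell at 1500 UMIs where NK cells had 70.2. Malat1, a nuclear RNA, took 2.82% of its UMIs. Despite the wide range of shares, the small subunit took a near constant portion of the member UMIs, from 43.6% in tumor cells to 47.2% in Th17/ILCs.

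**Figure D1:**
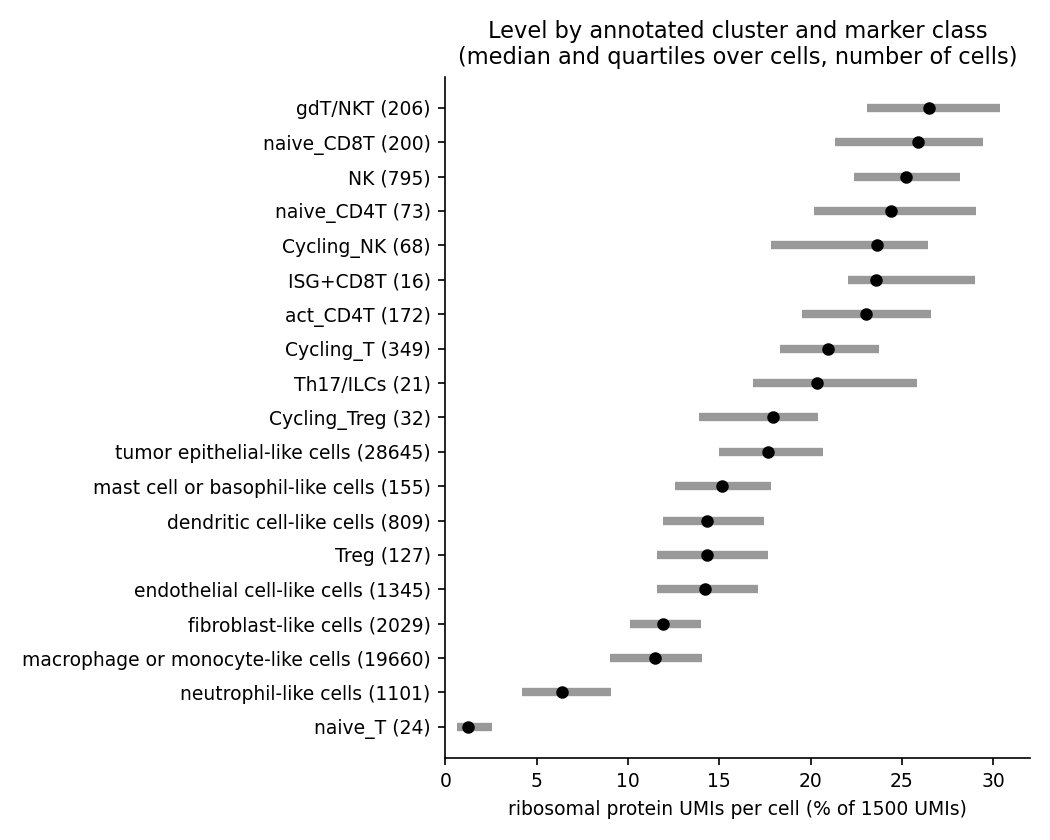
Share of UMIs on the 80 ribosomal protein genes (percent, cells thinned to 1500 UMIs) for each annotated T and NK cell cluster and each marker-named class, with the median and quartiles over cells. The clusters run from gdT/NKT (median 26.5%) to naive_T (1.23%), with tumor (17.7%), dendritic (14.3%) and macrophage (11.5%) cells between.

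Within a mouse the order of the broad populations was stable. NK cells were above T cells in 14 of 14 mice with enough NK cells, and T cells were above tumor cells in 15 of 15. Dendritic cells minus tumor cells gave -3.69 ± 1.39 percentage points (SD, n = 15), and dendritic cells were above macrophages by 2.94 ± 1.15 points. Tumor cells were above macrophages by 6.63 ± 1.07 points. Each of these last differences had the same sign in 15 of 15 mice (exact sign-flip permutation test, two-sided, adjusted p = 0.000102 over 10 pairs of populations, the smallest this test can give here). Cells of one class also varied beyond counting error, with SDs between cells of 3.11 to 6.28 points where counting alone gives 0.433 to 1.14.

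Single members did not follow the share in step. Without Rpl3l, Rpl39l and Rpl10l, whose UMIs in all clustered cells came to 767, 2160 and 4, the median member in macrophages was at 0.453 of its NK cell CPM, and 74 of 77 were lower in all 14 mice. The 3 that were not were Rps27l, Rpl7l1 and Rps29. Against NK cells, tumor cells had a median ratio of 0.754, with 48 of 77 members lower and 2 higher in all 14 mice. Those 2 were Rps2, and Rps27l, the paralog of Rps27 that p53 induces. Rps15a, a small subunit protein, gave the lowest ratio to NK cells in both, 0.350 in tumor cells and 0.295 in macrophages.

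Between tumor cells and macrophages, 63 of the 77 members were higher in tumor cells in all 15 mice and 2 were lower, with a median ratio of 1.54. The ratios ran from 0.431 for Rps29 to 3.08 for Rps2. Rps29, a small zinc-binding protein of the small subunit, was at 2565 ± 364 CPM in NK cells (SD, n = 14), 2249 ± 306 in macrophages and 970 ± 151 in tumor cells (n = 15 each). Its level in macrophages was thus near that of NK cells, while its neighbor in size Rps28 had 2734 ± 308 CPM in NK cells, 1763 ± 168 in macrophages and 3423 ± 554 in tumor cells. The other member lower in tumor cells in all mice was Rpl36al, whose reads can be split with the near-identical Rpl36a. Counts of Rpl13a, Rpl24 and Rps10 are uncertain too, as are those of any other member with near-identical copies in the genome. Reads that map equally well to a copy are not counted. Such copies and reads were not examined here.

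Paralog pairs were compared as UMIs of the less abundant gene per 100 of the other, in the same cells. Rps27l reached 11.5 ± 2.40 per 100 Rps27 in T and NK cells (SD over 15 mice), 20.8 ± 3.41 in tumor cells, 29.5 ± 5.07 in macrophages and 47.0 ± 10.97 in dendritic cells. Among these populations, Rpl22l1 was highest in T and NK cells, with 45.7 ± 4.48 per 100 Rpl22, against 32.5 ± 3.13 in macrophages, 29.5 ± 4.2 in dendritic cells and 22.6 ± 1.94 in tumor cells. Some classes outside them had more Rpl22l1 for their Rpl22. The 2 genes stood at 688 and 914 CPM in fibroblast-like, 682 and 1175 in endothelial cell-like, and 777 and 1375 in mast cell or basophil-like cells. Neutrophil-like cells had less, with 139 and 748 CPM. Rpl22 is known for its role in early T cell development. Rpl39l, the paralog of Rpl39 best known from male germ cells, was mostly a gene of fibroblast-like cells here, which held 1385 of its 2160 UMIs (56.2 CPM). Rpl3l, the striated muscle paralog of Rpl3, reached 21.6 CPM in neutrophil-like cells.

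The share of ribosomal protein UMIs in T and NK cells, lymphocytes that respond to IL-2, was the first comparison between treatments. The share per mouse was 23.0%, 22.9%, 22.2%, 24.4% and 23.6% in PBS, 24.0%, 23.1%, 24.1%, 23.8% and 23.3% under mono-IL10, and 22.7%, 22.9%, 21.6%, 23.4% and 24.7% under IL10/2-Trikine. The groups overlapped. The IL10/2-Trikine mean was 0.151 points below PBS (23.1% ± 1.14 against 23.2% ± 0.822, SD, n = 5 each, exact permutation test, two-sided, p = 0.810), and 0.165 points below it without the naive_T cluster, a choice made after the data were seen. Its sign turned at 2500 UMIs per cell (0.0109 points), without PBS mouse 4 (0.149) and without IL10/2-Trikine mouse 3 (0.218), so its direction is unknown. NK cells alone gave 25.1% ± 1.16, 25.3% ± 0.981 (n = 4) and 24.6% ± 1.72 for PBS, mono-IL10 and IL10/2-Trikine, and T cells 22.4% ± 1.17, 22.8% ± 0.426 and 21.4% ± 1.14. The largest of these differences, T cells under IL10/2-Trikine against mono-IL10 (4 of 5 IL10/2-Trikine mice below all mono-IL10 mice), missed the threshold of 0.05 (exact permutation p = 0.0397, adjusted p = 0.20 over the 18 comparisons of 6 populations). With 5 mice against 5 the smallest p is 0.00794. The T cells lay in different clusters by group, with Cycling_T at 43 of 249 T cells in PBS, 99 of 446 under mono-IL10 and 94 of 181 under IL10/2-Trikine, and naive_CD8T at 31, 121 and 2. The share expected from this mix alone, computed after the data were seen, gave -1.21 points for IL10/2-Trikine minus mono-IL10 and the remainder -0.149 points (exact permutation tests, adjusted p = 0.143 and 0.914 over 6 tests). Within Cycling_T cells IL10/2-Trikine had 21.2% ± 0.992 and mono-IL10 20.7% ± 0.346 (n = 5 and 4).

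Within single annotated clusters, none of 8 tests of the share passed (exact permutation tests, adjusted p from 0.847 to 0.976). NK cells, the cluster with the most mice, gave 25.2% ± 1.46 in PBS, 25.7% ± 1.49 under mono-IL10 and 25.2% ± 1.42 under IL10/2-Trikine. The number of cells per cluster did change the mix, with 219 of 400 cells NK under IL10/2-Trikine, 99 of 348 under PBS and 189 of 635 under mono-IL10. The mix of clusters alone would have raised the mean share of IL10/2-Trikine over PBS by 0.239 points, and the remainder was a difference of -0.390 points, neither past the threshold (adjusted p = 0.738 for the remainder).

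In macrophages the share per mouse lay between 10.6% and 12.2% in all groups, with means of 11.5% ± 0.488 for PBS, 11.2% ± 0.509 for mono-IL10 and 11.6% ± 0.619 for IL10/2-Trikine. No comparison passed, and IL10/2-Trikine against PBS differed by 0.0757 points (exact permutation test, adjusted p = 0.849). Dendritic cells, with 140 to 321 cells per group, gave 14.3% ± 0.604, 15.1% ± 1.10 and 13.8% ± 0.564, and none of their comparisons passed either (IL10/2-Trikine minus mono-IL10 -1.30 points, exact permutation adjusted p = 0.20). In cluster tests that were not among the planned tests, 2 of 10 macrophage clusters differed between IL10/2-Trikine and PBS. The cluster led by the interferon-induced genes Rsad2, Ifit2 and Cmpk2 had 10.6% against 8.87%, and the monocyte-like cluster led by Ccl24, Chil3 and Ccr2 had 15.7% against 14.2% (exact permutation tests, adjusted p = 0.0390 each over 54 cluster tests). The share expected from the mix of macrophage clusters alone differed by -0.397 points between mono-IL10 and PBS, and was 0.446 points higher under IL10/2-Trikine than under mono-IL10 (exact permutation tests, adjusted p = 0.0238 each). That expected from the mix of dendritic clusters differed by -0.248 points between IL10/2-Trikine and PBS (exact permutation adjusted p = 0.0476). None of the remainders passed in either class. Like the cluster tests, these splits were not among the planned tests.

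Of the 6 populations compared, tumor cells were the one in which treated and PBS mice did not overlap. The share per mouse was 16.6%, 17.4%, 17.0%, 16.7% and 16.6% in PBS. It was 18.3%, 19.1%, 18.6%, 18.0% and 17.8% under mono-IL10. It was 19.6%, 19.0%, 18.6%, 18.8% and 19.3% under IL10/2-Trikine. All 5 mice of each treated group were above all 5 PBS mice, while the treated groups overlapped. The means were 16.9% ± 0.360, 18.4% ± 0.526 and 19.0% ± 0.382, a difference from PBS of 2.19 points (1.13-fold) for IL10/2-Trikine and 1.52 points (1.09-fold) for mono-IL10. Each reached the smallest p the exact permutation test allows (p = 0.00794), which became an adjusted p of 0.0714 over the 18 comparisons and so did not pass. IL10/2-Trikine and mono-IL10 differed by 0.679 points (exact permutation adjusted p = 0.20).

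Endothelial cell-like and fibroblast-like cells were outside the 6 populations and were tested after the data were seen, as a family of 6 tests. Endothelial cell-like cells, of the vessel lining, gave 13.2% ± 1.03 in PBS, 15.5% ± 1.43 under mono-IL10 and 15.2% ± 0.825 under IL10/2-Trikine (SD, n = 5 each). Their share rose by 1.91 points under IL10/2-Trikine (exact permutation test, p = 0.0159, adjusted p = 0.0476, 4 of 5 mice above all PBS mice), while the 2.22 points under mono-IL10 missed the threshold (exact permutation adjusted p = 0.0595). Fibroblast-like cells, which make matrix, gave 11.6% ± 0.390, 12.7% ± 0.524 and 12.3% ± 0.511. Theirs rose by 1.16 points under mono-IL10 (exact permutation adjusted p = 0.0476), and the 0.716 points under IL10/2-Trikine missed the threshold (exact permutation adjusted p = 0.0595). In both classes 3 or 4 of 5 treated mice lay above all PBS mice, so the ranges overlapped.

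The depth of tumor cells differed with the groups as well, with a median of 25712 UMIs per cell in PBS, 35422 under mono-IL10 and 9977 under IL10/2-Trikine. Before thinning, the shares were 16.8%, 18.4% and 19.0%. In tumor cells of 4000 to 12000 UMIs, a window added after the data were seen, the difference from PBS was 2.43 points for IL10/2-Trikine (adjusted p = 0.103 in exact permutation tests) and 1.94 points for mono-IL10 (adjusted p = 0.206). Neither passed. The median depths of PBS and mono-IL10 lie above this window and that of IL10/2-Trikine within it, so it takes unlike cells from the groups. The part of depth in the tumor cell difference was not tested. Mitochondrial UMIs were 2.26%, 2.38% and 2.50% and Malat1 0.467%, 0.439% and 0.336% in PBS, mono-IL10 and IL10/2-Trikine. Summed macrophage markers were at 0.0188% of UMIs or less in every tumor sample, and the summed tumor markers at 0.474% to 0.622% in PBS, 0.529% to 0.575% under mono-IL10 and 0.413% to 0.448% under IL10/2-Trikine. The part of free RNA in the tumor cell difference was not tested.

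**Figure D2:**
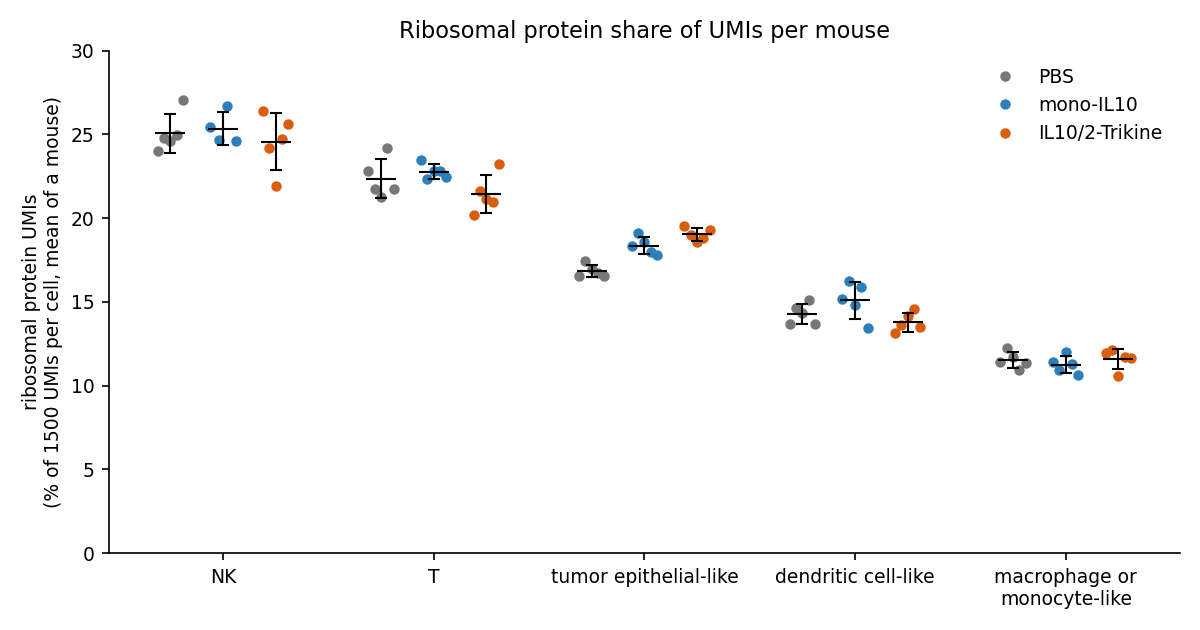
Share of UMIs on the 80 ribosomal protein genes (percent, cells thinned to 1500 UMIs) in each mouse, by treatment, for NK, T, tumor, dendritic and macrophage cells, with the mean and SD over mice. Tumor cells of all treated mice (17.8% to 19.6%) sit above those of the PBS mice (16.6% to 17.4%), and the groups overlap in the other populations shown.

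Within the tumor class the difference from PBS had the same sign in each cluster tested. These cluster tests, and the split into mix and remainder below, were not among the planned tests. The clusters share the same mice and libraries, so they are not separate results. Of 8 clusters tested, 8 had a higher mean under IL10/2-Trikine than under PBS, by 0.816 to 2.85 points, and 4 passed (exact permutation tests, adjusted p = 0.0390 over 54 cluster tests). Under mono-IL10 it was 7 of 7, by 1.15 to 2.81 points, and 5 passed. The clusters that passed had the smallest p the exact permutation test allows (p = 0.00794). The whole class had the same p and did not pass over its own 18 comparisons. The cycling cluster, led by Ube2c, Cenpf and Ect2, gave 16.6% in PBS, 17.8% under mono-IL10 and 18.5% under IL10/2-Trikine, and the cluster led by Ttr, S100g and Sptssb gave 16.0%, 17.8% and 18.8%. The highest shares were in the cluster led by Tff2, Lgals2 and Rbp4, genes of a secretory epithelium, with 22.3% ± 1.03, 25.1% ± 1.39 and 23.3% ± 0.282. Between IL10/2-Trikine and mono-IL10, 4 clusters were higher and 3 lower, and no test passed. The mix of tumor clusters accounted for 0.326 points of the IL10/2-Trikine difference from PBS and the remainder for 1.87 points (exact permutation tests, adjusted p = 0.0119 each). Between IL10/2-Trikine and mono-IL10 the mix gave 0.348 points (exact permutation adjusted p = 0.0119) and the remainder 0.331 points, which did not pass (exact permutation adjusted p = 0.333).

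**Figure D3:**
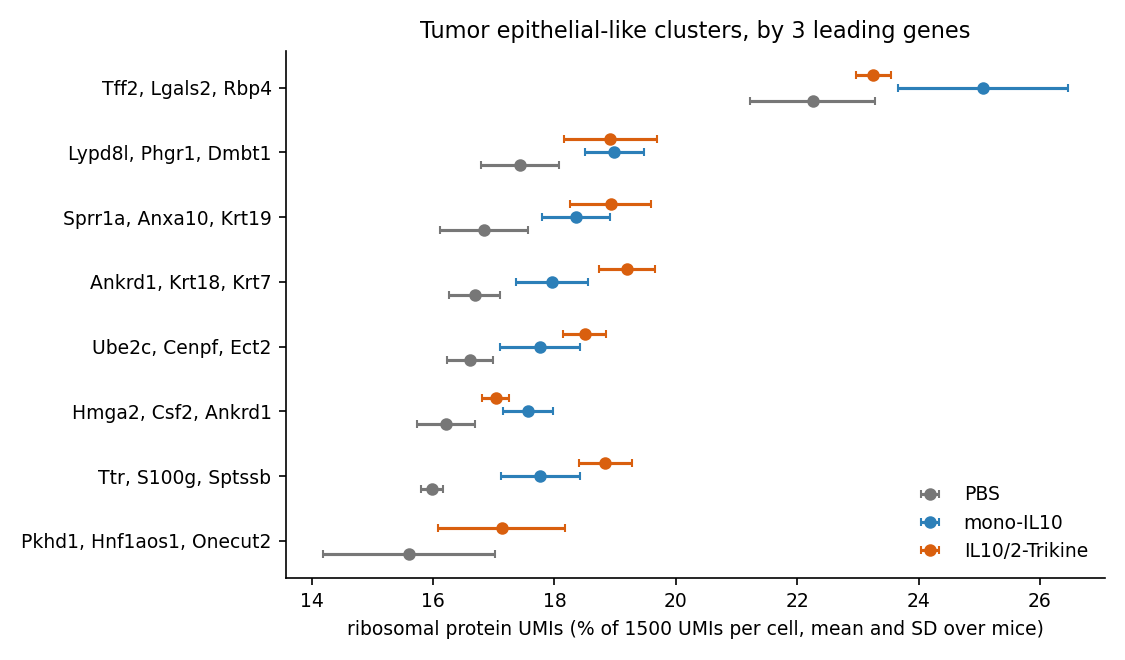
Share of UMIs on the 80 ribosomal protein genes (percent, cells thinned to 1500 UMIs, axis from 14%) in 8 tumor epithelial-like clusters named by 3 leading genes, as mean and SD over mice by treatment. In the Ttr, S100g and Sptssb cluster the means run from 16.0% in PBS to 18.8% under IL10/2-Trikine, and the Tff2, Lgals2 and Rbp4 cluster lies highest.

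Among the planned populations, the effect of IL10/2-Trikine on the share was larger in tumor cells than in NK cells, T cells, macrophages and dendritic cells. On the log2 scale, the effect of IL10/2-Trikine against PBS was lower by 0.21 in NK cells, by 0.24 in T cells, by 0.17 in macrophages and by 0.23 in dendritic cells than in tumor cells of the same mice (exact permutation of treatment labels, adjusted p = 0.0476 each over 30 tests). The effect of mono-IL10 was lower by 0.16 in macrophages than in tumor cells (adjusted p = 0.0476 in the same permutation tests). Set against tumor cells in 6 tests added after the data were seen, the log2 effect of IL10/2-Trikine against PBS was 0.02 higher in endothelial cell-like cells (exact permutation adjusted p = 0.794) and differed by -0.09 in fibroblast-like cells (exact permutation adjusted p = 0.0952), so no difference from tumor cells passed there.

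Gene by gene, the sums of counts per mouse were fitted with edgeR over all genes. In tumor cells, 51 of 77 tested members rose under IL10/2-Trikine against PBS and 2 fell, where 8.70% of all genes were called higher and 11.4% lower. Under mono-IL10, 73 of 77 members rose, where 3.98% of all genes were called higher and 2.24% lower, and 1 member had a negative estimate. The median log2 fold change of the members was 0.18 under IL10/2-Trikine and 0.23 under mono-IL10, against 0.00 for all genes in both. With scaling by library size alone, the IL10/2-Trikine calls were 49 higher and 7 lower, where 6.08% and 15.7% of all genes were called. With that scaling, the median over all genes under mono-IL10 moved to -0.11, and 53 members were called higher, where 1.52% of all genes were called higher and 16.4% lower. Both subunits took part, with 23 of 31 small and 28 of 46 large subunit members up under IL10/2-Trikine. Between IL10/2-Trikine and mono-IL10, 16 members were higher and 22 lower, where 13.7% and 16.7% of all genes were called. With scaling by library size alone they were 25 and 18, where 20.5% and 10.6% of all genes were called.

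The member that moved most in tumor cells was Rps27, a zinc finger protein of the small subunit also known as metallopanstimulin. Its level per mouse was 1718, 1826, 1666, 1801 and 1680 CPM in PBS, 1954, 2156, 2039, 2103 and 1971 CPM under mono-IL10, and 2811, 2627, 2605, 2686 and 2792 CPM under IL10/2-Trikine. The 3 groups did not overlap and stood in that order. Against PBS the log2 fold change was 0.68 ± 0.05 (SE, edgeR adjusted p = 5.91e-08) under IL10/2-Trikine and 0.34 ± 0.05 (edgeR adjusted p = 0.000643) under mono-IL10. Rpl38, a large subunit protein known for its part in the translation of Hox mRNAs, was at 1303 to 1398 CPM in PBS, 1540 to 1658 under mono-IL10 and 2011 to 2111 under IL10/2-Trikine, with a log2 fold change of 0.64 ± 0.04 under IL10/2-Trikine (edgeR adjusted p = 1.68e-08). Rpl35 and Rpl39, which line the exit tunnel of the large subunit, rose by 0.61 and 0.57, and Rps28 and Rps29 by 0.57 and 0.54.

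Other members of tumor cells rose less or fell. Rps6 rose by 0.14 ± 0.04 under IL10/2-Trikine (edgeR adjusted p = 0.0251) and by 0.32 ± 0.04 under mono-IL10, and the difference between the treatments, -0.18, also passed. Rps19 rose by 0.17 and 0.18. Under IL10/2-Trikine, Rps25, which some viral internal ribosome entry sites need, rose by 0.33, Rpl36a by 0.34, and Rpl10 and Rpl10a by 0.17 and 0.14. Rpl13a rose by 0.39 and 0.33, and its near-identical copies make the value uncertain. Rpl22 rose by 0.34 and 0.27, from 1784 ± 30.9 CPM in PBS to 2189 ± 30.3 under IL10/2-Trikine, and Rpl22l1 had 0.19 (edgeR adjusted p = 0.0665) and 0.32. Rpl5 and Rpl11, which form the complex with 5S RNA that holds MDM2 in check, had -0.05 and 0.06 under IL10/2-Trikine, neither past the threshold, and rose by 0.21 and 0.17 under mono-IL10. With TMM scaling, the members that fell under IL10/2-Trikine were Rpl7l1, a paralog of Rpl7 tied to ribosome assembly (-0.21 ± 0.04, edgeR adjusted p = 0.00256), and Rpl4, which reaches into the exit tunnel (-0.13 ± 0.04, edgeR adjusted p = 0.0237), a call lost without the filter on low counts (edgeR adjusted p = 0.0772).

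In T and NK cells the share hid movement of single members in both directions. Under IL10/2-Trikine against PBS, 15 of 77 members rose, where 4.64% of all genes were called higher, and 15 fell, where 4.79% were called lower, and the median log2 fold change was -0.02. Without the filter on low counts 8 were called higher and 7 lower (1.23% and 1.68% of all genes in that fit). Against mono-IL10, 6 were higher and 27 lower (3.92% and 4.94% of all genes), or 11 and 26 with scaling by library size alone (5.07% and 4.33%), and 1 and 29 without the filter (1.02% and 2.11%). Under mono-IL10 against PBS 3 rose, where 0.696% of all genes were called higher and 0.413% lower. In NK cells alone the counts were 4 higher and 6 lower of 76 (2.51% and 2.12% of all genes) under IL10/2-Trikine against PBS. These 10 calls became 3 to 8 when 1 mouse was left out and 16 with library size alone (2.68% of all genes higher and 2.17% lower). Without the filter on low counts 4 were higher and 0 lower (0.516% and 0.198% of all genes). Against mono-IL10, 8 NK members were lower and 0 higher (1.36% and 1.15% of all genes), and with library size alone 2 were also higher (0.934% and 1.36%). Those 8 calls became 0 to 13 when 1 mouse was left out and 19 with DESeq2 (2.12% of all genes lower and 1.23% higher). In T cells alone they were 9 higher and 15 lower of 76 (5.14% and 3.89%) against PBS, and 6 and 30 (6.33% and 6.02%) against mono-IL10. Without the filter on low counts the T cell calls were 3 higher and 16 lower against PBS (0.724% and 1.13% of all genes), and 0 and 35 against mono-IL10 (0.913% and 2.19%). The median log2 fold change over all genes of the filtered fit moved too. In T cells it was -0.11 against PBS and -0.17 against mono-IL10 without the filter (-0.01 and -0.002 with it). It was 0.09 in NK cells against PBS (-0.03 with the filter). In T and NK cells against mono-IL10 it was -0.08 (-0.002 with the filter). The part of the cluster mix given above in the calls of T cells, and of T and NK cells together, was not tested. mono-IL10 and PBS differed in 3 members in T cells, all higher (1.07% of all genes called higher and 0.627% lower). Leaving out 1 mouse gave 1 to 4 such calls. Library size alone (0.753% of all genes higher and 0.909% lower) and the fit without the filter (0.498% and 0.353%) gave 1 each. They differed in none in NK cells by edgeR or DESeq2, where 5 had an unadjusted p under 0.05 (0.212% and 0.0849% of all genes).

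Rpl41, the shortest ribosomal protein, led the rise in T and NK cells. It stood at 6303, 6301, 6181, 6822 and 6620 CPM in the PBS mice, 7021, 7244, 7335, 6461 and 7305 in the mono-IL10 mice, and 9420, 9103, 9392, 9181 and 9407 in the IL10/2-Trikine mice. Every IL10/2-Trikine mouse lay above every other mouse, with a log2 fold change of 0.54 ± 0.05 against PBS (SE, edgeR adjusted p = 7.68e-08), 0.35 ± 0.05 against mono-IL10 (edgeR adjusted p = 3.79e-05), and 0.20 ± 0.05 for mono-IL10 against PBS (edgeR adjusted p = 0.0454). Rpl38 went from 2661 ± 185 CPM in PBS to 3635 ± 236 under IL10/2-Trikine (log2 fold change 0.47 ± 0.07, edgeR adjusted p = 5.90e-05). Rpl35, Rpl39, Rps29 and Rps28 rose by 0.47, 0.40, 0.38 and 0.33. Rps25 rose by 0.26, a call lost without the filter on low counts (edgeR adjusted p = 0.176). Rpl39 also rose under mono-IL10, by 0.31 (edgeR adjusted p = 0.00237), together with Rpl37 and Rpl41. The Rpl39 call held under the alternatives run, whereas the Rpl37 call was lost without PBS mice 2 or 3 or mono-IL10 mice 1, 3 or 5. The Rpl41 call was lost with library size alone (edgeR adjusted p = 0.0762) and when 1 of 9 mice was left out. Leaving out 1 mouse gave 1 to 5 calls in this comparison, and DESeq2 gave 6 (1.07% of all genes called higher and 0.544% lower). Levels also differed by cluster, whose mix differed between the groups. Rpl41 was at 7913 CPM in NK, 7669 in Cycling_T, 6287 in naive_CD8T and 4880 in Treg cells. Rpl38 was at 3464, 2623, 3177 and 2011 CPM in the same order. The part of the cluster mix in these changes was not tested.

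Rps3, which lies at the mRNA entry channel and is also a DNA repair nuclease, went the other way. It stood at 2473, 2577, 2300, 2450 and 2451 CPM in PBS, 2415, 2600, 2855, 2537 and 2374 CPM under mono-IL10, and 1933, 1900, 1851, 1933 and 2049 CPM under IL10/2-Trikine. All IL10/2-Trikine mice lay below all others (log2 fold change -0.32 ± 0.07 against PBS, edgeR adjusted p = 0.00296). Rps4x, the X-linked copy of this small subunit protein, went from 2235 ± 183 CPM to 1770 ± 34.1 (-0.32 ± 0.07, edgeR adjusted p = 0.00290), and Rps7 fell by 0.29 on the log2 scale. Against mono-IL10 the members that were lowest were Rpl7a, Rps7, Rps4x and Rpl19, at -0.48, -0.48, -0.47 and -0.46. By cluster, Rps3 was at 2554 CPM in NK, 2011 in Cycling_T, 2656 in naive_CD8T and 1551 in Treg cells. The part of the cluster mix in these falls was not tested.

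Rps27l separated from Rps27 in these cells. Rps27l was at 260.1, 267.8, 286.5, 323.1 and 276.6 CPM in PBS, 293.5, 273.3, 325.9, 240.7 and 274.6 CPM under mono-IL10, and 365.0, 403.8, 450.7, 394.7 and 320.2 CPM under IL10/2-Trikine, so that 1 IL10/2-Trikine mouse lay within the range of the others. Its log2 fold change against PBS was 0.44 ± 0.13 (edgeR adjusted p = 0.0271), a call that was lost without the filter on low counts (edgeR adjusted p = 0.0866). Rps27 itself had 0.06 ± 0.07 (edgeR adjusted p = 0.71), unlike in tumor cells. Rps27l per 100 Rps27 was 10.5 ± 0.960 in PBS, 9.97 ± 1.72 under mono-IL10 and 14.0 ± 2.05 under IL10/2-Trikine in T and NK cells, whereas it was 24.5 ± 1.36, 21.1 ± 1.17 and 16.8 ± 1.03 in tumor cells. In NK cells alone this ratio was 9.21 ± 3.01, 9.35 ± 1.65 and 11.6 ± 3.48, within the spread. In T cells alone it was 11.2 ± 2.09, 9.98 ± 1.91 and 16.7 ± 2.88. Cycling_T cells held Rps27l at 377 and Rps27 at 2218 CPM, and naive_CD8T cells 184 and 4010 CPM. The part of the cluster mix in this ratio was not tested. Rps6, Rps19, Rpl11, Rpl22 and Rpl22l1 had log2 fold changes of 0.04, -0.17, -0.07, 0.12 and 0.18 against PBS in T and NK cells, and none passed.

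**Figure D4:**
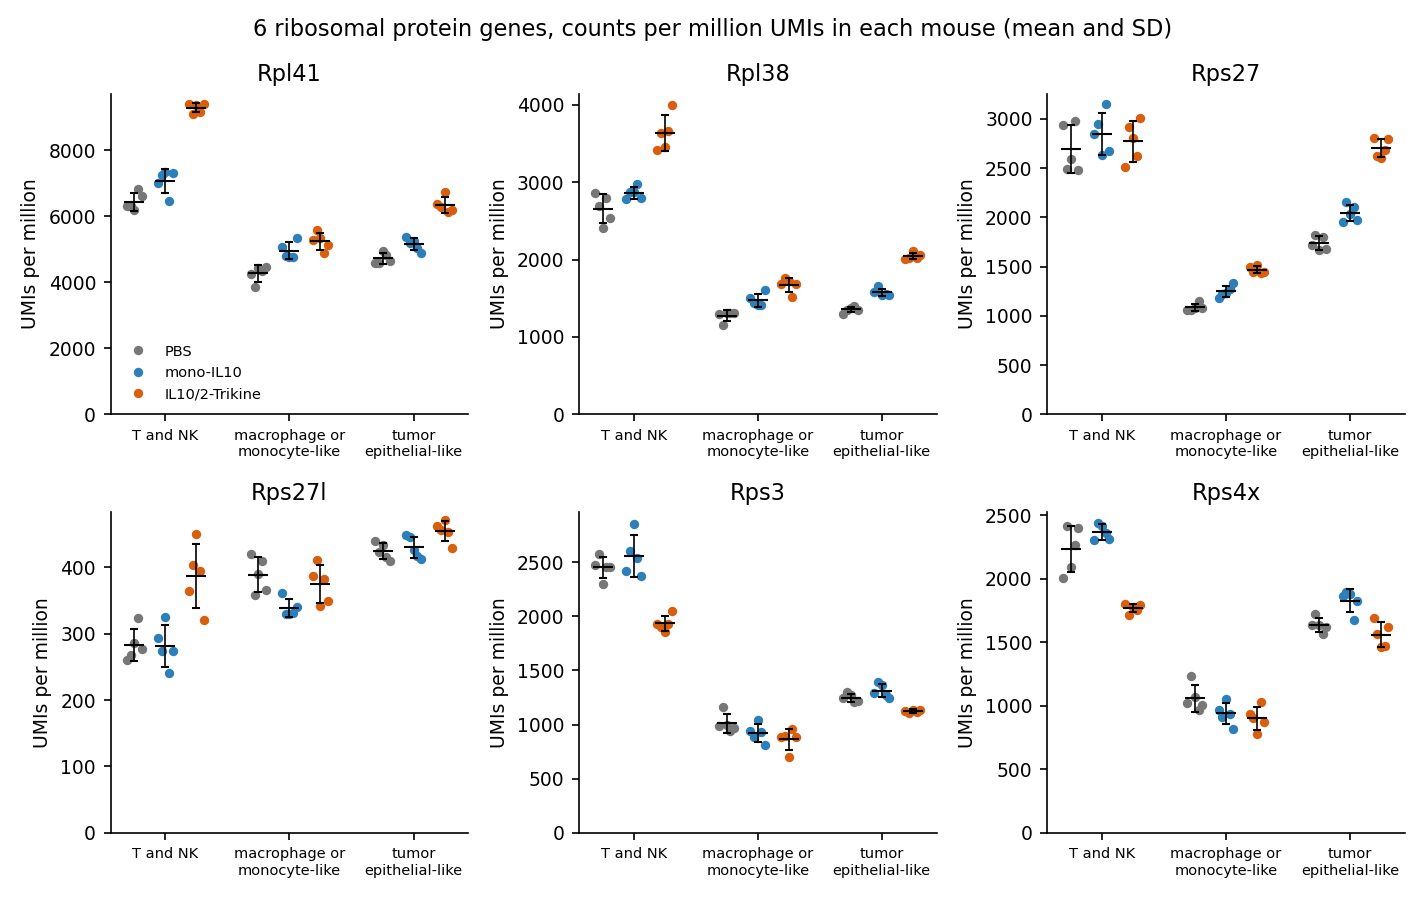
Levels (CPM) of Rpl41, Rpl38, Rps27, Rps27l, Rps3 and Rps4x in each mouse by treatment, in T and NK, macrophage or monocyte-like and tumor epithelial-like cells, with mean and SD (n = 5). Rpl41 and Rpl38 are highest under IL10/2-Trikine in T and NK cells and in tumor cells, Rps27 is highest there in macrophages and tumor cells, and Rps3 and Rps4x are lowest under IL10/2-Trikine in T and NK cells.

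In macrophages, 14 of 79 members rose under IL10/2-Trikine against PBS and 1 fell, where 9.12% and 8.68% of all genes were called. Without the filter on low counts 10 were called higher and 7 lower, where 3.6% and 5.19% of all genes were called. In the filtered fit 13 rose under mono-IL10, where 13.8% were called higher and 12.9% lower. With library size alone the mono-IL10 count became 11 higher and 6 lower, where 8.25% and 20% of all genes were called. The median log2 fold change of the members was -0.06 and 0.03. Rps27 was at 1060, 1064, 1082, 1152 and 1079 CPM in PBS, 1186, 1224, 1234, 1268 and 1333 under mono-IL10, and 1499, 1447, 1513, 1434 and 1441 under IL10/2-Trikine. As in tumor cells, its groups did not overlap, with 0.43 ± 0.05 for IL10/2-Trikine (edgeR adjusted p = 1.61e-05) and 0.29 ± 0.05 for mono-IL10 (edgeR adjusted p = 0.000356). Rps29 rose by 0.39 and 0.40, Rpl38 by 0.39 and 0.30, and Rpl13a by 0.33 and 0.41. The member that fell under IL10/2-Trikine was Rpl3, which lies near the peptidyl transferase center (-0.20 ± 0.06, edgeR adjusted p = 0.0247), while Rps6 had -0.06 and -0.03.

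IL10/2-Trikine and mono-IL10 differed in no macrophage member by edgeR, where 7 had an unadjusted p under 0.05, DESeq2 called 3, and scaling by library size alone called 6, all higher. Of all genes, 4.86% were called higher and 6.78% lower in the edgeR fit, 4.96% and 6.7% with DESeq2, and 9.64% and 3.54% with library size alone. In dendritic cells edgeR called no member of 77 in any comparison, where few genes of any kind were called, 0.141% higher and 0.1% lower for IL10/2-Trikine against PBS, 0.0201% in each direction between the treatments, and 0.382% higher and 0.141% lower for mono-IL10 against PBS. An unadjusted p under 0.05 was reached by 15 members for IL10/2-Trikine against PBS, 30 for the comparison of the treatments and 7 for mono-IL10 against PBS. DESeq2 called 5, 1 and 0 members, where it called 0.362% of all genes higher and 0.462% lower, 0.0803% and 0.221%, and 0.422% and 0.181%. The median log2 fold changes of the members there were -0.13, -0.23 and 0.11.

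The log2 fold changes of the members were next set against coding length. Coding length ran from 138 nt for Rpl41 to 1257 nt for Rpl4, with a median of 462. Across members, Spearman's rho between coding length and the log2 fold change of IL10/2-Trikine against PBS was -0.618 in T and NK cells (77 members), -0.572 in macrophages (79), -0.658 in dendritic cells (77) and -0.794 in tumor cells (77). These are descriptions across genes that share the same libraries and depth. In T and NK cells, 14 of 39 members at or under the median length rose and 3 fell, while 1 of 38 longer members rose and 12 fell. In tumor cells, 37 of 39 short and 14 of 38 long members rose, and in macrophages 11 of 40 and 3 of 39. Under mono-IL10 against PBS, 12 of 40 short and 1 of 39 long members rose in macrophages.

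For IL10/2-Trikine against PBS, a tilt of this kind was also seen in genes that are no members in T and NK cells, macrophages and tumor cells. Among the other genes with a coding length of at most 462 nt, the median log2 fold change of IL10/2-Trikine against PBS was 0.08 in T and NK cells (481 genes), 0.04 in macrophages (832) and 0.06 in tumor cells (967), and 9.56%, 13.2% and 21.1% were called higher. The longer genes had medians of -0.02, 0.01 and -0.01, and 3.64%, 9.04% and 7.29% were called higher. In dendritic cells the other genes had medians of -0.01 (short) and 0.00 (long), and 0 of 492 short ones were called higher. For mono-IL10 against PBS the relation was near 0 over the members in T and NK cells (rho -0.070), where the other genes had medians of 0.15 (short) and -0.03 (long). Over the members it was -0.606 in macrophages, -0.565 in dendritic cells and -0.483 in tumor cells. In tumor cells 38 of 39 short and 35 of 38 long members rose under mono-IL10, with medians of 0.26 and 0.20. The other genes of tumor cells had medians of 0.09 (short) and -0.02 (long) under mono-IL10, with 14.7% and 2.69% called higher, and those of macrophages 0.05 and -0.01, with 18.0% and 13.6% called higher. Those of dendritic cells had medians of 0.10 and -0.01 under mono-IL10, with 0.813% and 0.346% called higher. Between IL10/2-Trikine and mono-IL10, rho over the members was -0.582 in T and NK cells, -0.357 in macrophages, -0.486 in dendritic cells and -0.761 in tumor cells. The other genes did not tilt that way in this comparison. Their medians (short, long) were -0.06 and 0.01, 0.01 and 0.01, -0.11 and 0.00, and -0.02 and 0.01, in the same order. Cells of IL10/2-Trikine were the shallowest in all of these populations, and the part of depth or library in the tilt was not tested.

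**Figure D5:**
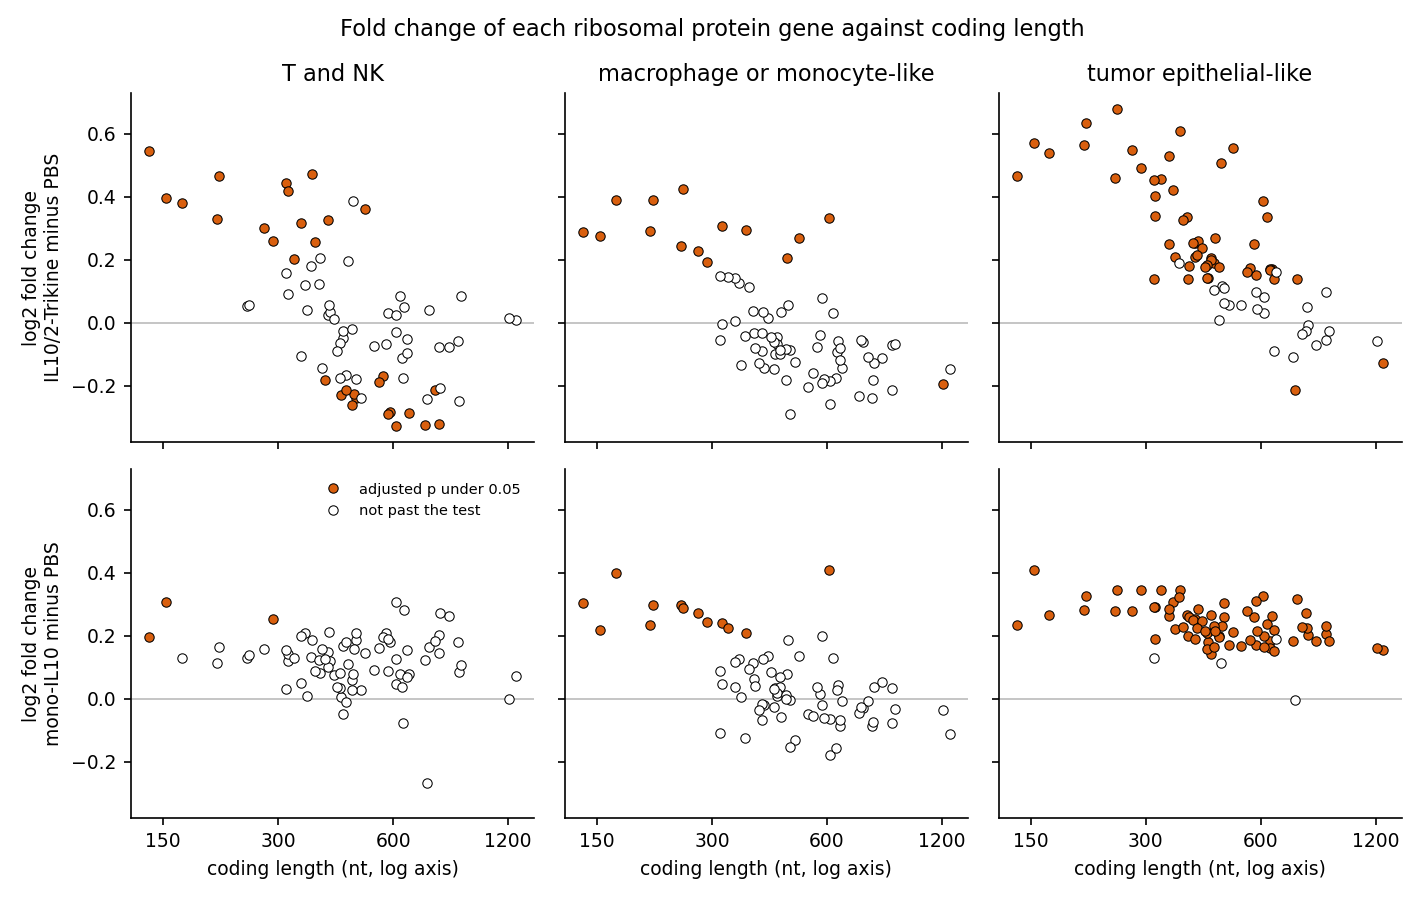
Log2 fold change of each ribosomal protein gene (edgeR) against its coding length (nt) in T and NK, macrophage or monocyte-like and tumor epithelial-like cells, for IL10/2-Trikine minus PBS above and mono-IL10 minus PBS below, without Rpl3l, Rpl39l and Rpl10l. Short members lie higher than long ones for IL10/2-Trikine in all 3 populations, and in T and NK cells the mono-IL10 points show no such slope.

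Other genes of the translation machinery were counted from lists set beside the members. In tumor cells, the 7 ribosomal proteins that the symbol rule omits had 4 higher under IL10/2-Trikine (among them Fau, made as a fusion with a ubiquitin-like protein, at 0.38, and Rplp2 and Rplp1 of the acidic stalk at 0.25 and 0.22) and 7 under mono-IL10 against PBS. Between the treatments, 3 were lower under IL10/2-Trikine. Of 16 mRNAs with TOP elements, of translation factors and related proteins, 9 rose under mono-IL10, but 1 rose (Eif3e) and 2 fell (Npm1 -0.25 and Pabpc1 -0.14) under IL10/2-Trikine, and 14 of 16 were lower under IL10/2-Trikine than under mono-IL10. Of all genes, 8.70% were called higher and 11.4% lower under IL10/2-Trikine, 3.98% and 2.24% under mono-IL10, and 13.7% and 16.7% between the treatments, and the same shares apply to the lists that follow.

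Ribosome biogenesis factors of tumor cells, 26 in all, had 1 higher and 5 lower under IL10/2-Trikine, 3 higher under mono-IL10 and 9 lower between the treatments. Of 78 mitochondrial ribosomal proteins, 11 rose and 10 fell under IL10/2-Trikine, 12 rose under mono-IL10, and 7 were higher and 19 lower between the treatments. Of 19 tested regulators, 4 fell under IL10/2-Trikine, namely the mTOR brake Tsc1 (-0.39), its GTPase target Rheb (-0.31), the 4E-binding protein Eif4ebp1 (-0.29) and the MYC partner Max (-0.19). Between the treatments 1 regulator was higher and 6 were lower, and none was called under mono-IL10 against PBS by edgeR, where 4 had an unadjusted p under 0.05 and DESeq2 called 1.

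The same lists were counted in T and NK cells, where 4.64% of all genes were called higher and 4.79% lower under IL10/2-Trikine against PBS, and 3.92% and 4.94% against mono-IL10. Of the 7 omitted ribosomal proteins, Rpsa fell under IL10/2-Trikine (-0.27), and 5 were lower than under mono-IL10. Among the 16 TOP mRNAs, Tpt1, the translationally controlled tumor protein, fell (-0.42), and 2 were lower than under mono-IL10. Dkc1, the pseudouridine synthase of ribosomal RNA, was the biogenesis factor that rose of 14 tested (0.90), with 2 higher against mono-IL10. Of 49 mitochondrial ribosomal proteins 1 rose, and 1 was lower against mono-IL10. Mxi1, a MYC antagonist, fell (-1.07) among 11 regulators, and 1 was lower against mono-IL10. Between mono-IL10 and PBS, edgeR called no gene of these lists in T and NK cells, where an unadjusted p under 0.05 was reached by 3 omitted ribosomal proteins, 4 TOP mRNAs, 1 biogenesis factor, 13 mitochondrial ribosomal proteins and 2 regulators, and DESeq2 called 2 omitted ribosomal proteins and 1 biogenesis factor.

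In macrophages, 9.12% of all genes were called higher and 8.68% lower under IL10/2-Trikine, 13.8% and 12.9% under mono-IL10, and 4.86% and 6.78% between the treatments. Of the 7 omitted ribosomal proteins 1 fell under IL10/2-Trikine against PBS, with no edgeR call in the other comparisons, where 2 each had an unadjusted p under 0.05 and DESeq2 called 1 each. Of the 16 TOP mRNAs 3 fell under IL10/2-Trikine, 3 were lower against mono-IL10, and 1 rose and 3 fell under mono-IL10. Of the 26 biogenesis factors 9 fell and 1 rose under mono-IL10, 6 were higher under IL10/2-Trikine than under mono-IL10, and 1 rose against PBS. Of 78 mitochondrial ribosomal proteins, 6 rose and 1 fell under IL10/2-Trikine, 7 rose and 2 fell under mono-IL10, and 2 were higher and 1 lower between the treatments. Of 18 regulators, 2 rose and 1 fell under IL10/2-Trikine, 3 rose and 2 fell under mono-IL10, and 2 were higher and 2 lower between the treatments. In dendritic cells no gene of these lists was called by edgeR, where 0 to 5 genes per list and comparison had an unadjusted p under 0.05 and DESeq2 called at most 1.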

How the data were processed

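Single cell RNA-seq and hashtag counts of 3 pooled libraries were used. The authors deposited filtered matrices of raw UMI counts, made with Cell Ranger 9.0.1 (file header) on GRCm39, and a table of T and NK cells with their cluster, hashtag call and mitochondrial percent. The deposited percent values and the hashtag calls came from the authors' processing, for which the submitters' processing notes list Seurat 5.1.0 and DESeq2 1.46.0. Annotated cells of a further group with no sample among those given were not used.

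A barcode was kept from 1000 detected genes upward if mitochondrial UMIs made up 10% or less, and hashtags were called with HTODemux (Seurat 5.3.0, positive quantile 0.99), which gave the authors' call for 97.1% to 98.6% of their annotated cells. Hashtag doublets were removed, but cells of the deposited annotation were kept whatever their call. Cells were clustered without the member genes (2000 variable genes, 40 principal components, 60 k-means clusters), and a cluster was named where its marker score was at least 0.25 with at least 3 markers and the best score of another lineage was at most 0.25 of it. A cluster also stayed unnamed where markers of another lineage outnumbered its own among its 10 leading genes. It stayed so too where its own were missing there and cells were shallow (median UMIs below 1 / 3 of that of their libraries). The dendritic marker Clec10a was not set against the macrophage cluster led by Cd163, Cbr2 and Fcna. That cluster kept its name with Clec10a and no macrophage marker among its 10 leading genes. Of the 24 unnamed clusters, 8 missed the score, 15 of the rest the limit on another lineage, and 1, a T cell-scored cluster, had shallow cells. Cells were thinned to 1500 UMIs, leaving out those below (at most 11 in a group of any tested population), and the share was averaged over cells per mouse, with at least 10 cells per mouse. Shares were compared with exact two-sided permutation tests (252 splits for 5 mice against 5), adjusted by Benjamini-Hochberg within each family. Nothing in the labels says that mice differed in cage or litter, so the spread is that between these 15 mice, within 1 library per group.

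Counts summed per mouse were fitted over all genes with edgeR 4.0.16 (TMM, filterByExpr, quasi-likelihood test, adjusted over all genes, threshold 0.05), with DESeq2 1.42.0 as an alternative. The edgeR script was tested on simulated data. CPM scale the summed gene UMIs of each mouse to a common total. Coding length was the longest annotated coding sequence in GENCODE vM21, matched by gene identifier for 80 of 80 members and used for length only. R 4.3.3, Python 3.11.15, numpy 2.4.6, pandas 2.3.3, scipy 1.17.1, scikit-learn 1.9.0 and matplotlib 3.10.9 were used.

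The members and lists were chosen with earlier results of these data known, so their p-values are not independent evidence. Named members were a set list (Rps6, Rps3, Rps19, Rps25, Rps27, Rps27l, Rps28, Rps29, Rps4x, Rpl5, Rpl11, Rpl10, Rpl10a, Rpl13a, Rpl22, Rpl22l1, Rpl38, Rpl39, Rpl39l, Rpl3, Rpl3l, Rpl7l1, Rpl36a and Rpl36al) plus the 4 with the largest change past the threshold in each direction per comparison, in T and NK, macrophage and tumor cells. Rps2 and Rps15a, named as the ends of ranges between cell types, were chosen after their values were seen. Alternatives were other depths and scalings, the cell filter, the member list, the clustering, DESeq2, the filter on low counts and leaving out each mouse. The SD that counting gives between cells covers counting error only. Proteins of paralog pairs were not analysed here. Some genes that the named-gene rule or a list holds are counted but not reported here by name.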

Additional observations from a re-analysis of the deposited data

Results flagged for a closer look

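Of 72 groups of mice searched for a value far from the others, 4 had one, a number near that which chance gives (about 1 in 20 groups). All 4 were in macrophages. Mouse 2 of PBS had the lowest Rpl38 level of its group, 1152 CPM against 1300 to 1315 in the other mice, and the highest Rps3 level, 1164 CPM against 939 to 995. Mouse 4 of PBS had the highest Rps27 level, 1152 CPM against 1060 to 1082. Mouse 3 of IL10/2-Trikine had the lowest Rps3 level, 698 CPM against 884 to 958.

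The effect of a treatment on the member share differed between cell populations in 5 of 30 tests (exact permutation of treatment labels, adjusted p = 0.0476 each). For IL10/2-Trikine against PBS, the log2 effect in NK cells minus that in tumor cells was -0.21, and for T cells it was -0.24, for macrophages -0.17 and for dendritic cells -0.23. For mono-IL10 against PBS it was -0.16 for macrophages minus tumor cells. Tumor cells are in each of these differences, so they are not 5 separate results.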

How the results depend on the processing

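Each named member call was rerun under each other setting and without each mouse. Of the pairs of a call and a setting 541 of 588 held, and of the pairs of a call and a left-out mouse 1979 of 2191. None turned direction. With summed UMIs in place of thinned cells, the tumor cell differences passed (2.44 points above PBS for IL10/2-Trikine, 1.51 for mono-IL10, and 0.934 between the treatments, adjusted p = 0.0476 in exact permutation tests), as did 2.22 and 1.48 with cells of at least 2000 genes (adjusted p = 0.0437). In thinned cells both differences from PBS already had the smallest p of the exact permutation test (p = 0.00794). Their passing under these settings thus reflects the adjustment over the family, not a smaller p. With summed UMIs, T minus tumor cell effects also differed between the treatments (-0.170). Small share differences changed sign, which leaves their direction unknown. At 2500 UMIs, IL10/2-Trikine minus PBS became 0.0109 in T and NK and 0.0792 in dendritic cells, and mono-IL10 minus PBS -0.0213 in NK cells. The last was -0.198 without mitochondrial UMIs, and the macrophage difference of IL10/2-Trikine from PBS became -0.0117 when members were allowed in clustering. The mixture part of IL10/2-Trikine minus mono-IL10 in T and NK cells became 0.118 with reference shares from PBS and mono-IL10 cells. With summed UMIs the NK cell effect (-0.0200, against PBS) and the T cell effect (-0.0168, against mono-IL10) lay below that in dendritic cells, where both lay above it in thinned cells.

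Counts of members called moved as follows. Without the filter on low counts they were 15 in T and NK cells and 4 in NK cells (IL10/2-Trikine against PBS, with the shares of all genes given above), 2 in NK and 1 in T cells (mono-IL10 against PBS), and 2, 3 and 1 in the dendritic comparisons against PBS, against mono-IL10, and of mono-IL10 against PBS. Of all genes, 0.318% were called higher and 0.00707% lower in those NK cells, and 0.498% and 0.353% in those T cells. For the dendritic comparisons it was 0.349% and 0.501%, 0.174% and 0.383%, and 0.4% and 0.298%. With library size alone they were 16 in NK cells and 2 in dendritic cells (IL10/2-Trikine against PBS), 1 in T cells (mono-IL10 against PBS) and 6 in macrophages (IL10/2-Trikine against mono-IL10). Of all genes, 2.68% were called higher and 2.17% lower, 0.181% and 0.1%, 0.753% and 0.909%, and 9.64% and 3.54%, in that order. DESeq2 gave 6 in T and NK cells (mono-IL10 against PBS), 19 in NK cells and 3 in macrophages (IL10/2-Trikine against mono-IL10), and 5 and 1 in dendritic cells (IL10/2-Trikine against PBS and mono-IL10). It called 1.07% of all genes higher and 0.544% lower, 1.23% and 2.12%, 4.96% and 6.7%, 0.362% and 0.462%, and 0.0803% and 0.221%, in that order. The cause of these moves was not tested.

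Leaving out 1 mouse gave 3 to 8 calls in NK cells against PBS in place of 10 (3 to 6 without PBS mice 2, 3 or 4 or IL10/2-Trikine mice 2, 4 or 5). NK cells against mono-IL10 gave 0 to 13 in place of 8 (13 without PBS mouse 1, 1 and 0 without mono-IL10 mice 1 and 4, 3 and 4 without IL10/2-Trikine mice 2 and 4). For mono-IL10 against PBS, T and NK cells gave 1 to 5 in place of 3 (1 without PBS mice 2 or 3 or mono-IL10 mice 1, 3 or 5, and 5 without PBS mouse 4 or IL10/2-Trikine mouse 3), and T cells 1 to 4 (1 without PBS mice 2, 3 or 5, mono-IL10 mice 1, 3, 4 or 5 or IL10/2-Trikine mouse 3). Dendritic cells against PBS gave 0 to 2 (2 without mono-IL10 mouse 2) and macrophages against mono-IL10 0 to 1 (1 without mono-IL10 mouse 5). Shares of IL10/2-Trikine minus PBS ranged from -0.962 to 0.161 points in NK cells (positive without IL10/2-Trikine mouse 3), -0.566 to 0.218 in T and NK cells (positive without PBS mouse 4 or IL10/2-Trikine mouse 3), -0.0724 to 0.336 in macrophages (negative without PBS mouse 4 or IL10/2-Trikine mice 1 or 2) and 2.07 to 2.34 in tumor cells. mono-IL10 minus PBS ranged from -0.191 to 0.751 in NK cells (negative without PBS mouse 1 or mono-IL10 mouse 4) and 1.32 to 1.66 in tumor cells, and IL10/2-Trikine minus mono-IL10 from -1.81 to -1.04 in T cells. Without IL10/2-Trikine mouse 5 the tumor cell differences from PBS and the T cell difference from mono-IL10 passed (exact permutation adjusted p = 0.0476). The tumor cell difference of mono-IL10 from PBS was unchanged there at 1.52 points, so its passing reflects the adjustment.

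No paired analysis was possible because the 5 mice of each group are tagged within 1 library, and a hashtag number does not tie mice of different groups. Each group is 1 library, so library and treatment cannot be told apart. Depth was lowest under IL10/2-Trikine, T and NK cells numbered 348 to 635 per group, dendritic cells 140 to 321, and 39.2% of clustered cells had no class, among them tumor-like clusters near the naming limit. With these added to the tumor class, after the data were seen, the differences from PBS were 2.10 and 1.59 points (adjusted p = 0.0714 each).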
